A study of Arabidopsis thaliana with 4 samples.

Results

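The subject is the group of zinc finger protein genes among the targets of AGAMOUS (AG) in young Arabidopsis thaliana flowers. Members were taken from the authors' deposited target table by their annotation: the text before the first semicolon had to hold the words zinc finger. Of 1958 target genes, 52 met this condition. A set of 6 genes is kept out: BBX13, CRC, JAG and SUP, which met it, and AT1G28040 and GIS, which did not. This left 48 genes (2.45% of the table), and every score and region below refers to them unless another gene is named. The scores that were kept out reach 2927.42 (BBX13), so the upper end of the members' scores is set partly by this choice.

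Binding was measured by chromatin immunoprecipitation followed by sequencing (ChIP-seq). There were 2 libraries from AG-GFP AP1-GR ap1 cal plants, which carry AG fused to green fluorescent protein, and 2 from AP1-GR ap1 cal plants, the negative control, which lack the fusion. All plants were in the Ler-0 background, carried the ap1-1 and cal-1 mutations and the 35S:AP1-GR transgene, and were treated with 10 μM dexamethasone, which lets the AP1-GR fusion start flower formation in many meristems at once. Inflorescences were taken 4 days later and both genotypes were precipitated with the same anti-GFP antibody. The tissue thus has no AP1 or CAL function other than that of a transgene driven by a general promoter, and flowers of this system are synchronised by a drug. The scores are the authors' own, 1 for each peak with no value for each library, so no replicate error, read depth or interval can be attached to them, and no test between the groups of libraries was possible. All coordinates are TAIR10.

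A zinc finger is a small protein fold held by a zinc ion between cysteine and histidine residues. The fold serves different ends in different families. C2H2, GATA and Dof (DNA binding with one finger) proteins use it to bind DNA and act as transcription factors. B-box domains mediate contacts between proteins and occur in regulators of light responses and flowering time, including CONSTANS (CO). RING domains recruit the conjugating enzyme in ubiquitin ligases, CCCH fingers bind RNA, and DHHC proteins attach palmitate to other proteins. AG itself is a MADS-domain transcription factor that specifies stamens and carpels and ends the activity of the floral meristem.

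The members were spread over 8 subclasses named in the annotation. RING proteins were the most numerous with 19 genes. The DNA-binding classes followed, with 9 C2H2, 4 Dof and 1 GATA gene, and there were 3 B-box, 2 CCCH, 2 DHHC and 1 MYND gene. Of all protein-coding genes, 6.62% were targets. The same share was not computed for these subclasses, whose genome totals were not counted, so their order is not a result about the targets. For the other 7 genes the annotation gave no subclass word. From their names or general knowledge these include the Dof gene OBP4, the C2H2 genes IDD2 and ZFP7, and the CCCH gene ZFN1. They also include LOL1, which has plant-specific zinc fingers, the RNA-directed DNA methylation factor FDM5, and TIM9. TIM9 is a small carrier protein of mitochondrial import described as zinc finger-like, so the group's label fits it only in part. InterPro domain text follows the part that the rule read for 40 members, and all 40 name a zinc finger domain, for FDM5 a putative one. This text belongs to the same annotation, so it is not an independent check of the label. Members without it, LOL1 and TIM9 among them, could not be compared in this way. Among the RING genes with such text, 17 of 18 name a RING domain. The exception is AT2G26130, known as RSL1 (Ring finger of Seed Longevity 1), whose text names a C6HC-type finger.

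The members' highest scores ran from 38.14 to 590.28 with a median of 120.56 (quartiles 67.95 and 194.35). The other 1910 target genes ran from 38.14 to 12585.03 with a median of 144.72 (quartiles 78.17 and 289.21). The highest-scoring member stood at rank 202 of the 1958 targets, so no member was among the first 200. The other target genes include the 6 kept-out genes and 30 genes with the words zinc finger only later in their annotation. Some of these rank higher, such as IDD7 at rank 27, so the members' upper limit depends on the wording and does not hold for all zinc finger targets. Of the 48 members, 18 (37.5%) had a score at or above the median peak score of 139.67, where 51.7% of all target genes did. In the upper quartile of peak scores, from 278.78 upwards, were 8 members (16.7%) and 26.0% of all target genes. These differences describe the table; no test was run on them, since the members were chosen with earlier results of these data known.

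**Figure D1:**
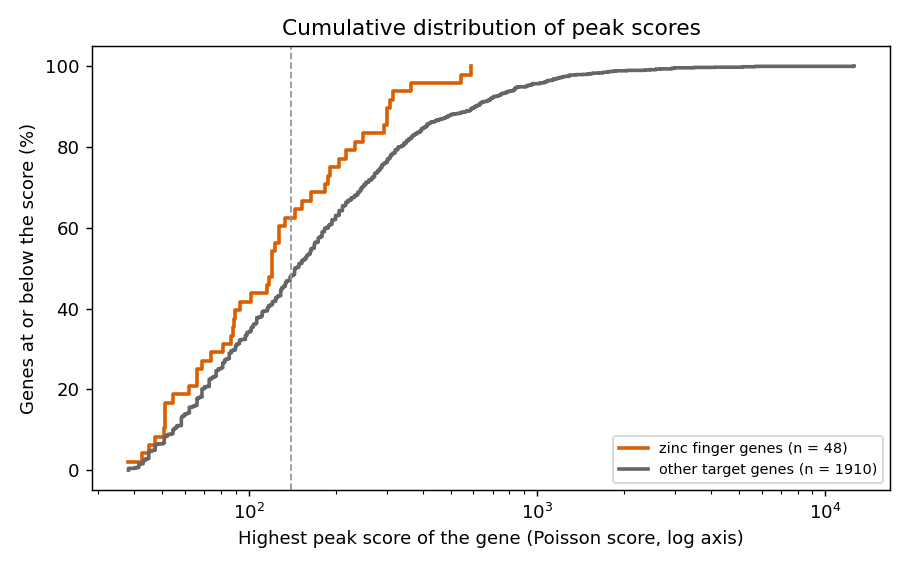
Cumulative share of genes (%) at or below each highest peak score (log axis) for the 48 zinc finger genes and the 1910 other target genes; the dashed line is the median peak score of 139.67. The curve of the zinc finger genes ends at 590.28, while that of the other targets runs on to 12585.03. The other targets include zinc finger genes that the rule left out.

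RING genes, which include ubiquitin ligases, held the member with the highest score and spanned the range most widely. AT1G02610, annotated as similar to PIT1 (AT4G02075), scored 590.28. Its peak lay inside the gene, at 553601 to 554024 on chromosome 1. AT4G35840, annotated as NEP1-interacting protein 1, scored 308.23 within 1000 bp upstream (chromosome 4, 16980373 to 16980611). AT2G37950 had a peak of 301.85 on chromosome 2 from 15884033 to 15884262, also within 1000 bp upstream. The first of these 3 stood well apart from the others, which lay close together in score.

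Further RING genes also lay above the median peak. AT5G60710, which also has a von Willebrand factor domain, scored 293.44 within 1000 bp upstream. AIRP2, a ligase that acts positively in abscisic acid responses, scored 232.28 in the same region, in a peak shared with other targets. MIEL1 (AT5G18650), a ligase that acts on the transcription factor MYB30, scored 182.79 at 1000 to 2000 bp upstream. The MIEL1 peak lies nearer to AT5G18640, another target, and is downstream of that gene. AT1G72175 (247.73) and LUL3 (152.42) had their peak downstream, and AT1G18470 (216.69) had it inside the gene. In all, 9 of 19 RING genes (47.4%) were at or above the median peak score, against the 51.7% of all target genes. Below it were AT1G49230 (ATL78, 133.69), AT5G19430 (126.58), AT4G11680 (101.69), AT5G41400 (89.7), AT5G55970 (68.62), AT3G18930 (65.95), AT1G72220 (54.43), ATL3 (51.24), WAVH2 (47.19) and RSL1. WAVH2 belongs to a group of root gravitropism regulators. RSL1 had the lowest RING score, 42.52, from a peak 60 bp wide, the narrowest peak of any member.

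The C2H2 genes, a class of transcription factors that also contains the kept-out floral regulators SUP and JAG, had a median score of 116.86, and 3 of 9 reached the median peak. AT2G45120 was the second of all members, with 544.54 within 1000 bp upstream (chromosome 2, 18602998 to 18603416). Its annotated closest relative, AT3G60580, was a member too, with 116.86 in the same region on chromosome 3 from 22393495 to 22393662, and AT4G16610, which is annotated as similar to AT3G60580, had 62.03 at 1000 to 2000 bp upstream. The 3 related genes thus had peaks at different scores. The peak of AT4G16610 lies nearer to UMAMIT8, another target, and is also listed downstream of that gene.

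IDD1 (ENHYDROUS), an INDETERMINATE DOMAIN gene known from seed maturation and germination, was the C2H2 member with peaks on both sides. The peak downstream scored 301.85, on chromosome 5 from 26641325 to 26641659, and that within 1000 bp upstream scored 236.14, from 26645169 to 26645376. AT5G22990 scored 164.08 at 2000 to 3000 bp upstream, in a peak that lies nearer to MYB37 (RAX1), a gene of axillary meristem formation. DOT5, a WIP-domain gene described for leaf vein patterning, scored 126.58 downstream of the gene in a peak that is also downstream of AOC4, which encodes an enzyme of jasmonate synthesis. AT1G26590 and AT1G26610, annotated as each other's relative, share 1 peak of 51.18, which lies nearest to the peptide gene CLE9 between them. The lowest C2H2 score was 50.77 at AT5G10970, 2000 to 3000 bp upstream.

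**Figure D2:**
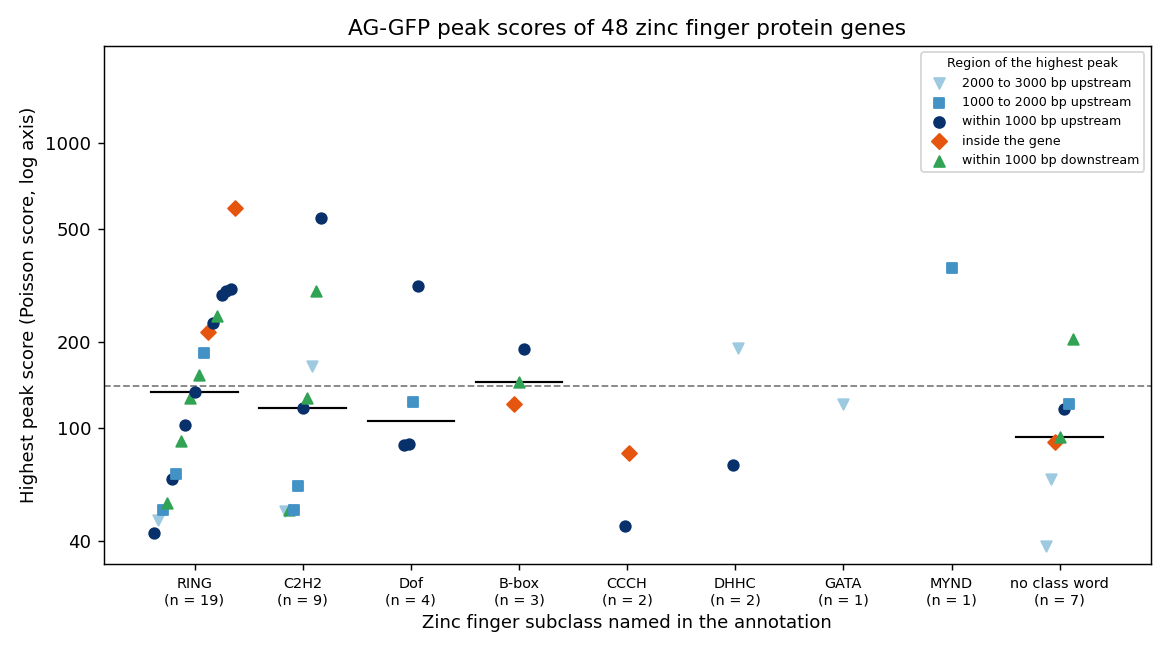
Highest peak score (log axis) of each of the 48 zinc finger genes by the subclass named in the annotation; each point is 1 gene, its shape and colour give the region of its highest peak, the short lines are medians of subclasses with 3 or more genes and the dashed line is the median peak score of 139.67. The RING genes spread from 42.52 to 590.28 and the B-box genes lie together between 120.56 and 188.32.

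All 4 Dof genes had their peaks upstream. DOF2.4, a gene of early vascular tissue, scored highest with 314.65 within 1000 bp upstream (chromosome 2, 15768154 to 15768344). The same peak lies downstream of AT2G37585, which is nearer to it. DOF5.8 (AT5G66940), also known from vascular development, scored 122.94 at 1000 to 2000 bp. OBP1, a regulator of cell cycle entry, had 2 peaks, of 87.64 within 1000 bp upstream and of 50.77 at 2000 to 3000 bp. DOF1.3 (AT1G26790) had the lowest Dof score, 86.49. OBP4, which is counted outside the Dof subclass because its annotation has no class word, scored 115.74 within 1000 bp upstream. Of these 5 genes only DOF2.4 was above the median peak.

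The 3 B-box genes had scores of middle rank. BZS1 (BBX20), which acts in brassinosteroid and light signalling, scored 188.32 within 1000 bp upstream (chromosome 4, 18207062 to 18207246). COL5, a CO-like gene, scored 144.72 downstream of the gene. BBX21, a positive regulator of seedling responses to light, had a peak of 120.56 inside the gene and one of 85.33 downstream. BZS1 and BBX21 are named as each other's relative in the annotation and had peaks in different regions. GATA7 was the only GATA gene, with 120.56 at 2000 to 3000 bp upstream in a peak that lies inside ALDH3F1, an aldehyde dehydrogenase gene.

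The remaining classes were small. AT1G67340, an F-box protein gene with a MYND finger, scored 365.01 at 1000 to 2000 bp upstream (chromosome 1, 25228707 to 25229096), the third-highest member score. The DHHC genes AT3G04970 and AT2G14255 scored 190.73 and 74.05. The CCCH genes scored 81.04 (AT5G12440, inside the gene) and 44.86 (OZF1, a gene of the oxidative stress response). Among the genes with no class word, LOL1, a positive regulator of cell death, scored 205.2 downstream of the gene. FDM5 scored 120.56, IDD2 92.65, ZFP7 88.78, TIM9 65.95 and ZFN1 38.14. The score of ZFN1 equals the lowest in the whole target table.

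Peaks lay in the same regions as those of other targets to within a few percentage points, apart from the gene body and the downstream stretch. A peak within 1000 bp upstream was listed for 18 of 48 members (37.5%), against 671 of 1910 other targets (35.1%) and 35.2% of all target genes. There were 8 members with a peak at 1000 to 2000 bp and 8 at 2000 to 3000 bp upstream (16.7% each, against 19.4% of other targets in each bin). Inside the gene, 5 members had a peak (10.4%, against 15.4%), and downstream 12 did (25.0%, against 19.2%). Any upstream peak was present at 33 members (68.8%, against 69.4%). With 48 genes, 1 gene is worth about 2 percentage points, and no test was run. Members with peaks in more than 1 region were IDD1, BBX21 and OBP1 (6.25%, against 7.66% of all target genes).

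**Figure D3:**
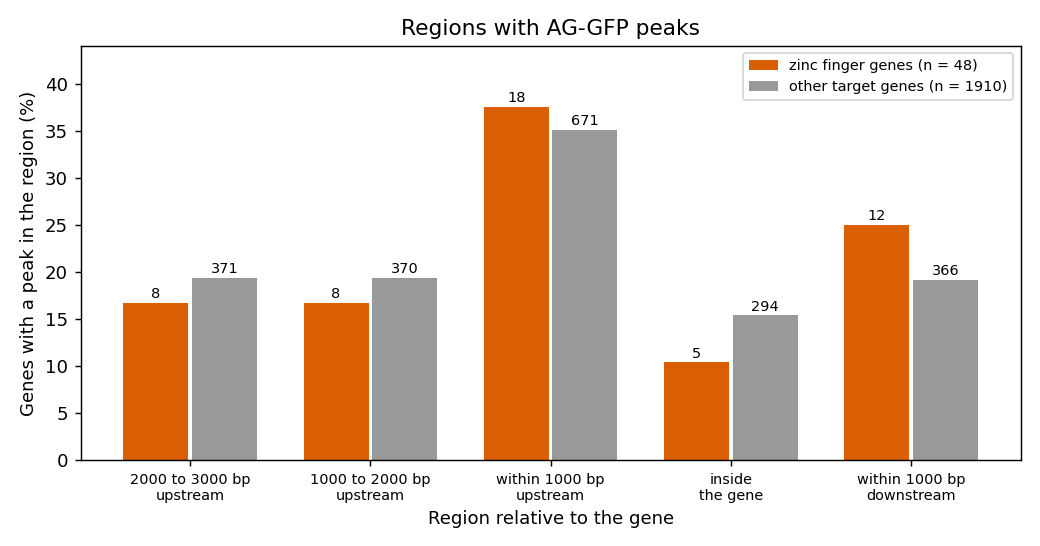
Share of genes (%) with a peak in each of 5 regions, for the 48 zinc finger genes and the 1910 other target genes, with the number of genes above each bar; a gene with peaks in several regions counts in each. The tallest pair of bars is the stretch within 1000 bp upstream, with 37.5% of the zinc finger genes and 35.1% of the other targets.

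Within the group, median scores were lower far upstream than near or inside the gene, with no test run. Members whose highest peak was 2000 to 3000 bp upstream had a median of 65.95 (7 genes, 38.14 to 190.73), and those with it at 1000 to 2000 bp a median of 94.59 (8 genes, 51.18 to 365.01). The median was 116.86 within 1000 bp upstream (17 genes, 42.52 to 544.54), 120.56 inside the gene (5 genes) and 126.58 downstream (11 genes). Among the other targets, medians ran from 138.72 to 164.2 and the highest, 164.2, belonged to the stretch at 2000 to 3000 bp. The ranges of the members' regions overlap widely.

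Which gene a peak belongs to could not be read from position for many members. A peak was shared with at least 1 other target gene for 28 of 48 members (58.3%), against 74.9% of the 1867 other targets that could be linked to a peak; targets with no match in the gene table could not be counted as sharing one. The remaining 20 (41.7%) had no other target on any of their peaks, against 25.1%. The member was the protein-coding gene nearest to at least 1 of its peaks in 32 cases (66.7%), against 59.8% of the other protein-coding targets. This followed the region closely: the member was nearest for 16 of 18 peaks within 1000 bp upstream, 3 of 8 at 1000 to 2000 bp and 0 of 8 at 2000 to 3000 bp. It was nearest for 10 of 12 downstream and for 5 of 5 inside the gene, where a peak counts as nearest by definition. The farthest bin, where the members' median score was lowest, was also the one where no member was nearest to its peak. A link between score and nearness was not tested, and nearest-gene shares by region were not computed for the other targets.

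A set of 11 members had an unshared peak inside the gene or within 1000 bp upstream with no nearer gene. The corresponding share of the other target genes was not computed, so this count does not set the group apart. By score they were AT2G45120, AT2G37950, AT5G60710, BBX21, AT3G60580, OBP4, OBP1, AT2G14255, AT3G18930, OZF1 and RSL1. Other members share their peak with genes of other kinds. The AIRP2 peak is also downstream of RUS5 and 2000 to 3000 bp upstream of the light-harvesting gene LHCB4.1. The peak of AT4G35840 is also assigned to ACO1, an aconitase gene, and that of BZS1 to VHA-A3, a proton pump subunit gene. The TIM9 peak lies nearest to SOS5, a cell surface glycoprotein gene, and the WAVH2 peak nearest to IAA9, an auxin response repressor gene that is not linked to it in the table. Of the 18 peaks within 1000 bp upstream of a member, 1 was also within 1000 bp upstream of another target, that between AT4G11680 and AT4G11690.

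The 50 peaks of the members were 60 to 498 bp wide with a median of 196 bp, against a median of 236 bp and a range of 51 to 7045 bp for the other 1371 peaks. The widest member peak lay inside AT1G18470. Scores recur in the list: the 1421 peaks have 568 distinct scores, and 45 of the 50 member peaks (90.0%) carry a score found at another peak as well, against 73.7% of all peaks. Member peaks stop at a score of 590.28 where other peaks reach 12585.03, and recurrence was not compared at like scores. The value of 120.56, found at 13 peaks in all, belongs to BBX21, FDM5 and GATA7. The value of 301.85, found at 9 peaks in all, belongs to AT2G37950 and IDD1. Equal scores at these genes come from different peaks and do not mark a shared one.

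**Figure D4:**
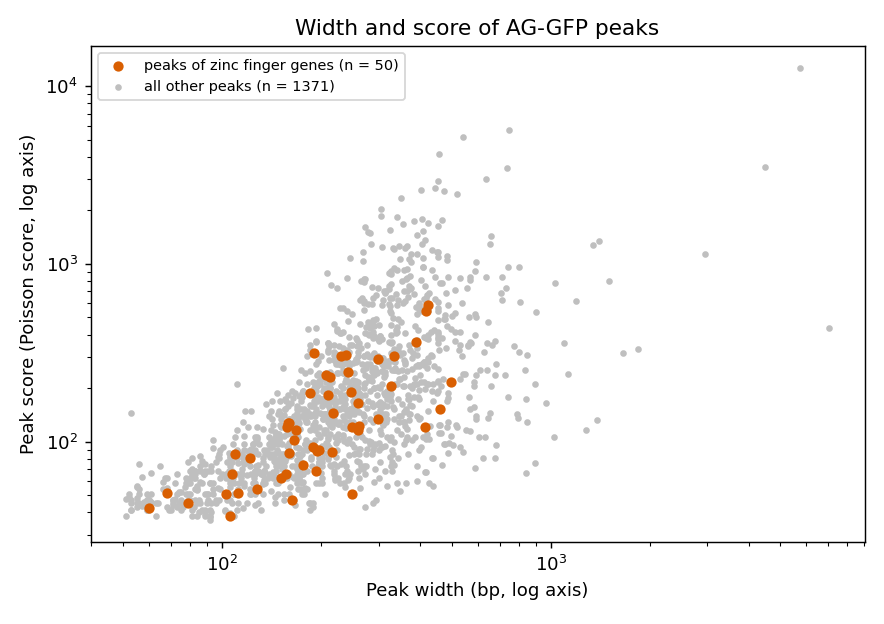
Peak width (bp, log axis) against peak score (log axis) for the 50 peaks of zinc finger genes and all 1371 other peaks. The member peaks lie within the cloud of the others, none wider than 498 bp or above a score of 590.28.

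Some members were listed together with a close relative. The annotation names a similar Arabidopsis gene for 40 members, and for 11 of them (27.5%) at least 1 of the genes named was also a target, against 190 of 1139 other targets (16.7%). Leaving out cases where both share a peak, the counts were 9 (22.5%) and 175 (15.4%). Where targets name each other, as AT2G45120 and AT3G60580 do, each was counted, among members and other targets alike. The counts are thus not of independent genes, and no test was run on these shares. Within the group the pairs with separate peaks were IDD1 with IDD2, BZS1 with BBX21, AT2G45120 with AT3G60580, AT4G16610 with AT3G60580, and DOF5.8 with OBP1. The relatives outside the group were AT3G21100 (232.28), a relative of AT5G12440, and EDA40 (AT4G37890, 58.82), a relative of WAVH2.

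Whole families could be counted only where the gene table names their members. Of all 27444 protein-coding genes, 6.62% were in the target table. Among 12 genes named as INDETERMINATE DOMAIN (IDD) genes, 6 were (50.0%). They are IDD1 and IDD2 of the group and 4 genes whose annotation does not open with the words of the rule. IDD7 scored 1759.93, with its highest peak 2000 to 3000 bp upstream, and IDD4 1441.85 inside the gene, both above every member. IDD12 scored 123.8 and SGR5 (IDD15), a gene of shoot gravitropism, 102.9. The IDD genes MGP, NUC, IDD5, IDD11, IDD14 and IDD16 were not in the table. The gene table does not name JKD, a further IDD gene with no entry in the target table. With it the count is 6 of 13 (46.2%). The numbering of the named genes has further gaps, so the family may be larger and the share lower. The family is plant-specific and includes regulators of root tissue patterning and gibberellin signalling.

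The other families had lower shares. Of 31 B-box genes with a BBX name, 4 were targets (12.9%), BBX13 included. Of 18 genes named as Dof, 3 were (16.7%), a count that leaves out the targets DOF1.3 and DOF5.8 and the non-targets OBP2 and OBP3, which the gene table does not name as Dof. Of 13 RING genes that the gene table names as ATL with a number, 4 were targets (30.8%). These were AT1G49230, ATL3, ATL2 and ATL43, with scores of 133.69, 51.24, 62.03 and 44.86. The annotation gives ATL names to 3 further members that are outside this count: AT4G35840 (308.23), AT3G18930 (65.95) and AT1G72220 (54.43). Other ATL and Dof genes without such a name that are not targets were not counted. The shares of both families therefore hold for named genes only and are not shares of the whole family. The GATA family had 1 of 29 (3.45%), below the share of all genes, and the WIP, TZF and ZFP names had 1 of 6, 1 of 8 and 1 of 10, so that single genes decide these shares. No enrichment test was run on any family.

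**Figure D5:**
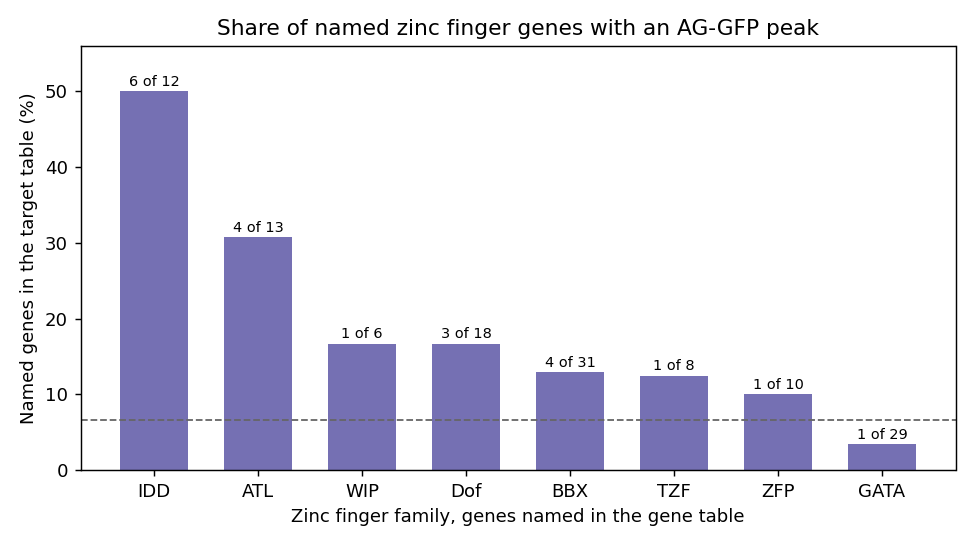
Share of genes (%) in the target table for 8 zinc finger families, counted over protein-coding genes that the gene table names as such, with the counts above each bar; the dashed line is the 6.62% of all protein-coding genes. The IDD genes stand highest with 6 of 12 and the GATA genes lowest with 1 of 29.

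Most genes in a list of known zinc finger regulators had no entry in the target table. The list covers flowers, meristems, trichomes and flowering time as well as roots, seeds and gravitropism, and leaves out the genes kept out of the group. Of its 40 names, 38 could be matched and 3 (7.89%) were targets, near the 6.62% of all protein-coding genes. These were OBP1, BB, a RING ligase that limits floral organ size (205.6 within 1000 bp upstream), and SGR5. BB and SGR5 are not among the members because their annotation does not use the words of the rule. The kept-out regulators come from the target table itself, so their presence in it is no result. SUP scored 365.01, JAG 327.59, CRC 1514.19 and GIS 47.78. With these 4 genes the count is 7 of 42 (16.7%), a share raised by that choice. Among C2H2 genes, KNU, which ends stem cell activity in the flower, RBE, NUB, ZFP5, ZFP6, ZFP8, GIS2, IDD14, IDD16, JKD, MGP, NUC, NTT and TT1 had no entry. Likewise not listed were the GATA genes HAN, GNC and GNL, the B-box genes CO, COL1 and COL2, and the Dof genes CDF1, CDF2, CDF3, DAG1, OBP2 and OBP3. DA2, HUA1, MIF1, MIF2, ZHD1, SE, VRN2, FIS2 and EMF2 were also not in the table.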

How the data were processed

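ChIP-seq of AG-GFP and negative control inflorescences was summarised by the authors in 1 list of peaks and 1 table of target genes. Per the file headers, the deposited score is a Poisson score of each peak, and the target table gives each gene's highest score in 5 regions that reach 3000 bp upstream and 1000 bp downstream of the gene. Per the submitters' processing notes, the build is TAIR10. Not given in the sources used here are the aligner, the peak calling and how replicates were combined, so a score cannot be referred to read numbers. In the peak list the score and position headers stand over each other's values, and the deposited positions, widths and other values were read by what they hold.

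Subclasses were read from annotation words. A peak was linked to a gene of the RefSeq gene table (TAIR10.1, names and neighbourhood only; all 48 members and 1916 of 1958 targets matched) where its score equalled a region's score within 0.006, up to 3500 bp from the gene. Linking was tested on simulated data in which genes lay far apart with 1 peak each. Shared peaks, and peaks of equal score near the same gene, were not simulated. The 51 region scores of the members each found 1 peak. The members, lists and families were chosen with earlier results of these data known. Named were the 20 highest-scoring members, the 3 highest and the lowest of each larger subclass, members with several regions or a peak shared with another member, and the list of regulators; members beyond this rule were named after their values were seen. Medians, counts and shares were computed in Python 3.11.15 with pandas 2.3.3. Alternatives were other readings of the annotation, score thresholds and gene assignments.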

Additional observations from a re-analysis of the deposited data

How the results depend on the processing

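The number of zinc finger genes depends on the choice of words and peaks. Against 48 genes, 78 were counted with the words anywhere in the annotation, 18 with the median peak score or more, 8 at or above the upper quartile and 23 within 1000 bp upstream or inside the gene. It stayed within 1.5 times with the nearest gene only (32) and with the 6 kept-out genes added (54). The median score ran from 120.56 to 126.58 as reported and under the 3 alternatives run for it (words anywhere, 6 genes added, within 1000 bp upstream or inside the gene). These sets share genes with the main set and are not independent of it. The 95% interval of the median was 87.64 to 152.42 (counting error over genes only, as if they were drawn at random). It also holds 144.72, the median of the other target genes. The members were chosen by annotation, and AT1G26590 and AT1G26610 share 1 peak, so the interval is no test of that difference. The share with a peak within 1000 bp upstream ran from 35.4 to 37.5%. No paired analysis was possible because the tables hold no value per library; leaving out a library was not possible for the same reason. The CArG-box and protein-pattern alternatives were not run, as no sequences were used here. No value can be referred to sequencing depth.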

Other observations

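A further 30 target genes have the words zinc finger only later in their annotation. Their scores ran from 38.14 to 1759.93 with a median of 138.72, and 10 of them (33.3%) lay in the upper quartile of peak scores. Beside IDD7 and IDD4, the highest were AT5G61100, with a FYVE/PHD-type finger (1290.39, downstream of the gene), SINAT2, a gene of the SINA class of ubiquitin ligases (844.33, inside the gene), and EDA18, a RING gene (836.04, 2000 to 3000 bp upstream). Next came AT1G75400 (673.41) and the histone acetyltransferase gene HAC5 (602.34). All 7 scored above the highest-scoring member, AT1G02610. They were chosen by score after their values were seen, and no test was run on them.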
